A study of Mus musculus with 6 samples.

Results

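The genes described here are 9 genes of the potassium channels of the mouse ventricle, *Kcnd2*, *Kcnd3*, *Kcnip2*, *Kcna5*, *Kcnj2*, *Kcnj3*, *Kcnj11*, *Kcnq1*, and *Kcnh2*. They were chosen by gene symbol for the currents that they carry or modulate and are 9 of 56923 genes listed in the count table. All 9 were among the 17212 genes that passed the filter on low counts and were tested. The mRNA-Seq compared the left ventricles (LVs) of 3 *Lztr1* R409C/+ mice with those of 3 WT mice, all 12 weeks of age, with 1 library per mouse. *Lztr1* R409C/+ mice carry 1 knock-in allele of *Lztr1*, a gene whose protein directs RAS family proteins to degradation, and are a model of Noonan syndrome. The line was made by CRISPR/Cas9 and crossed to C57BL/6J, and the mutation is in the germ line, so it is present in every cell type of the ventricle. The labels call the tissue heart, and the study's methods call it LVs of hearts perfused with phosphate-buffered saline. The comparison asks which ventricular transcripts differ when 1 *Lztr1* allele carries the mutation.

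Potassium channels repolarize the cardiomyocyte after each beat and hold its resting potential. In the mouse ventricle, where the action potential is short, repolarization depends mainly on rapidly activating outward currents: the fast transient outward current through Kv4 channels (*Kcnd2* and *Kcnd3*, with the accessory subunit encoded by *Kcnip2*) and the Kv1.5 current (*Kcna5*). Inward rectifiers set the resting potential (*Kcnj2*), respond to G proteins (*Kcnj3*), or couple excitability to ATP (*Kcnj11*), and *Kcnq1* and *Kcnh2* carry the delayed rectifier currents IKs and IKr, which are prominent in larger mammals.

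Levels are given as CPM, counts relative to the size of each library after TMM scaling, which adjusts for differences in composition. Genotype differences are log2 fold changes, positive where the mutant was higher, from the quasi-likelihood fit of edgeR. A gene was called when its p, adjusted by Benjamini-Hochberg over the 17212 tested genes, was under 0.05. Each mouse had 66130887 to 72641124 counts in all, so that a floor of 3 counts, which covers counting error alone, was 0.0317 to 0.0541 CPM. The mitochondrial share of counts was 13.8% in WT replicate 3 and 45.4% in *Lztr1* R409C/+ replicate 1, against 29.7% to 37.3% in the other 4 mice, so the log2 fold changes of members are also given without both. *Myh6*, the adult cardiac myosin heavy chain, had 6330 to 17348 CPM. Among the atrial markers, *Myl7*, *Sln*, and *Bmp10* were at or near 0, with at most 0.262 CPM in any mouse, and *Nppa* had 37.7 to 106.5 CPM. *Lztr1* itself, in which the mutation is a base substitution, had 24.2, 24.2, and 22.2 CPM in WT and 23.9, 27.9, and 25.3 CPM in *Lztr1* R409C/+ mice, so its level says nothing about the genotype labels. In bulk LV, fewer cells of a type and less RNA per cell cannot be told apart.

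Of the 9 genes, 0 passed an adjusted p of 0.05 in the edgeR fit, beside 0.0407% of all tested genes (0.0349% higher and 0.00581% lower in the mutant), and 0 passed by DESeq2, beside 0.871%. At an unadjusted p under 0.05, 2 of 9 were lower in *Lztr1* R409C/+ mice, *Kcnd2* and *Kcnj3*, and 0 were higher, against 8.63% of tested genes (2.86% lower and 5.77% higher). The CPM of the genotypes did not overlap for the same 2 genes, both lower, against 15.5% of tested genes (7.23% lower and 8.3% higher). The median log2 fold change of the 9 genes was −0.05, beside 0.01 over all tested genes, with 4 genes above 0 and 5 below. The single genes ranged from −0.62 for *Kcnd2* to 0.24 for *Kcna5*.

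**Figure D1:**
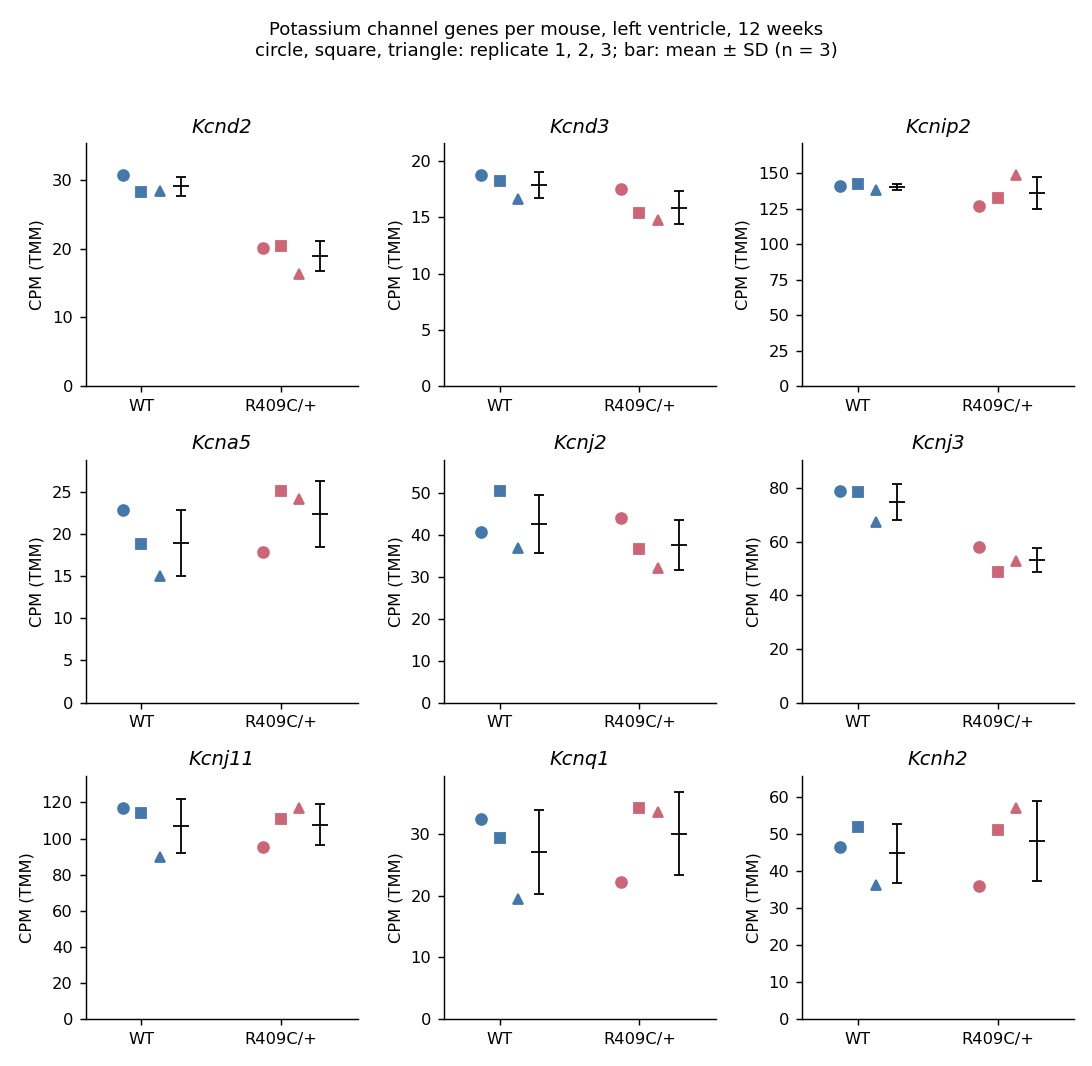
TMM-scaled CPM (vertical axes, from 0) of the 9 potassium channel genes in each of 3 WT (blue) and 3 *Lztr1* R409C/+ mice (red), with circle, square, and triangle for replicates 1, 2, and 3 and bars for the mean ± SD. The genotypes are separate for *Kcnd2* (28.2 to 30.7 against 16.4 to 20.4) and *Kcnj3* (67.1 to 78.7 against 48.7 to 57.8) and overlap for the other 7 genes.

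*Kcnd2* and *Kcnd3* encode Kv4.2 and Kv4.3, the pore-forming subunits of the fast transient outward current. *Kcnj3* and *Kcnj5* encode Kir3.1 and Kir3.4, which together form the channel opened by acetylcholine through G proteins. In each pair, the ratio of the partners did not overlap between the genotypes, and the 250 bases before the start of each gene are shown to let the partners be compared. They are from RefSeq, on GRCm38.p6, at chr6:21215096-21215345 (plus strand) for *Kcnd2*, chr3:105451640-105451889 (plus strand) for *Kcnd3*, chr2:55435720-55435969 (plus strand) for *Kcnj3*, and chr9:32344345-32344594 (minus strand) for *Kcnj5*. Each is written 5′ to 3′ along its gene, and capitals mark matches to the motifs searched.
Kcnd2: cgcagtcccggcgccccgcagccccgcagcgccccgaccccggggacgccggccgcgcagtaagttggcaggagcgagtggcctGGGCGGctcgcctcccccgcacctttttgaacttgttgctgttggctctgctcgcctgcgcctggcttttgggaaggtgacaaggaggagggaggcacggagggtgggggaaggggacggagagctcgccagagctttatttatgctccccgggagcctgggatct
Kcnd3: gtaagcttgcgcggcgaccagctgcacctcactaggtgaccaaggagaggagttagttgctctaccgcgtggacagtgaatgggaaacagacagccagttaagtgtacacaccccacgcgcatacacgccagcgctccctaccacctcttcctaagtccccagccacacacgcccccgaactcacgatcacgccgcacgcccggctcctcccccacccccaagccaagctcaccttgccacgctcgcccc
Kcnj3: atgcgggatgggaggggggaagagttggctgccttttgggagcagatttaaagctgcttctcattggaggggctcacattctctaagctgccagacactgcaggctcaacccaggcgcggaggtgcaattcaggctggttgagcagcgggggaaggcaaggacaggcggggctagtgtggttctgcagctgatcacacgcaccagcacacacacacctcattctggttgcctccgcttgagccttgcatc
Kcnj5: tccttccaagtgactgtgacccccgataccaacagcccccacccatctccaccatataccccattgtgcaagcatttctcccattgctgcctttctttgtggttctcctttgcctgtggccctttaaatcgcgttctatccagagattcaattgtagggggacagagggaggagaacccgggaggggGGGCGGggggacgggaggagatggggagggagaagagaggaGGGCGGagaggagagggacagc
The promoters of *Kcnd2* and *Kcnd3* had 68.8% and 62.8% GC, with 22 and 18 CpG dinucleotides, and those of *Kcnj3* and *Kcnj5* had 58.4% and 58.0% GC, with 7 CpG each. The median of all 32851 promoters of this length was 52.4% GC. The capitals are GC boxes (GGGCGG), at −166 from the start in *Kcnd2* and at −63 and −22 in *Kcnj5*. GC boxes occurred in 32.7% of all promoters of this length. No match was present in these 4 windows for the TATA box (TATAAA, in 12.4% of promoters), the E-box (CACGTG, 6.02%), the GATA site (GATAA, 22.6%), the Iroquois site (ACANNTGT, 6.31%), the CArG box (1.47%), or the MEF2 site (0.508%). Both strands were searched, and none of the printed matches overlapped. A match describes the letters of the window and not a bound site.

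*Kcnd2* (ENSMUSG00000060882.6, GRCm39 chr6:21214866-21729804) had 30.7, 28.2, and 28.4 CPM in WT replicates 1, 2, and 3 and 20.0, 20.4, and 16.4 CPM in *Lztr1* R409C/+ replicates 1, 2, and 3. Every mutant mouse was below every WT mouse, with means of 29.1 ± 1.39 and 18.9 ± 2.23 CPM (SD, n = 3 each). The log2 fold change was −0.62 (SE 0.16), a difference of −34.9% with a 95% interval of −48.6% to −17.4%, with an unadjusted p of 0.00196 and, in the edgeR fit, an adjusted p of 0.268. DESeq2 gave an adjusted p of 0.0554. Without WT replicate 3 and *Lztr1* R409C/+ replicate 1, the log2 fold change was −0.68, and with each mouse left out in turn it lay between −0.68 and −0.52.

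*Kcnd3* (ENSMUSG00000040896.17, GRCm39 chr3:105359284-105581318) had 18.8, 18.2, and 16.6 CPM in WT and 17.5, 15.4, and 14.8 CPM in *Lztr1* R409C/+ mice. The genotypes overlapped, with *Lztr1* R409C/+ replicate 1 above WT replicate 3. Its log2 fold change was −0.17 (SE 0.16), with a 95% interval of −0.52 to 0.17 and an adjusted p of 0.808 in the edgeR fit. A difference as large as that of *Kcnd2* lay outside this interval, but *Kcnd2*'s own interval, −0.96 to −0.28, overlapped with it. The antisense gene *Kcnd3os* had 20 to 35 counts per mouse, against 969 to 1573 of *Kcnd3*, and reads of overlapping genes cannot be told apart without strand.

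*Kcnip2* (ENSMUSG00000025221.17, GRCm39 chr19:45780278-45804836), which encodes KChIP2, a calcium-binding subunit that raises the surface level of Kv4 channels, had 140.9, 142.3, and 138.3 CPM in WT and 127.2, 132.5, and 148.7 CPM in *Lztr1* R409C/+ mice. The WT mice lay within a narrow range, and the mutant mice lay on both sides of it. For *Kcnip2*, the log2 fold change was −0.05 (SE 0.15), with a 95% interval of −0.37 to 0.28 and an adjusted p of 0.957 in the edgeR fit.

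The partners of the fast transient outward current were compared within each library, where a ratio does not depend on the scaling of the library. The ratio of *Kcnd3* to *Kcnd2* was 0.611, 0.647, and 0.585 in WT mice, against 0.874, 0.752, and 0.901 in *Lztr1* R409C/+ mice. All 3 mutant mice were above all 3 WT mice, with a log2 difference of 0.45 (means 0.615 ± 0.0311 and 0.842 ± 0.0798, SD, n = 3 each, exact permutation test, two-sided, p = 0.1, the smallest that 3 mice against 3 can give). The ratio of *Kcnip2* to the sum of *Kcnd2* and *Kcnd3* was 2.85, 3.06, and 3.07 in WT mice, against 3.39, 3.70, and 4.78 in *Lztr1* R409C/+ mice. It did not overlap either (log2 difference 0.39, exact permutation p = 0.1). The highest value was that of *Lztr1* R409C/+ replicate 3, without which the log2 difference was 0.24. Over the 5 ratios compared between genotypes, these p-values were 0.125 after Benjamini-Hochberg adjustment of the exact permutation p. *Kcnd2* enters both ratios as the denominator, so they are not separate results. A ratio keeps any shift between genes of unlike GC content in a library. In *Lztr1* R409C/+ replicate 3, tested genes within 1 percentage point of the GC content of *Kcnip2* (55.3%) had a median of 0.21. This median was −0.08 for *Kcnd2* (47.3%) and −0.0017 for *Kcnd3* (49.1%), each as log2 CPM relative to the gene's own mean. The part of GC content in these ratios was not tested.

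**Figure D2:**
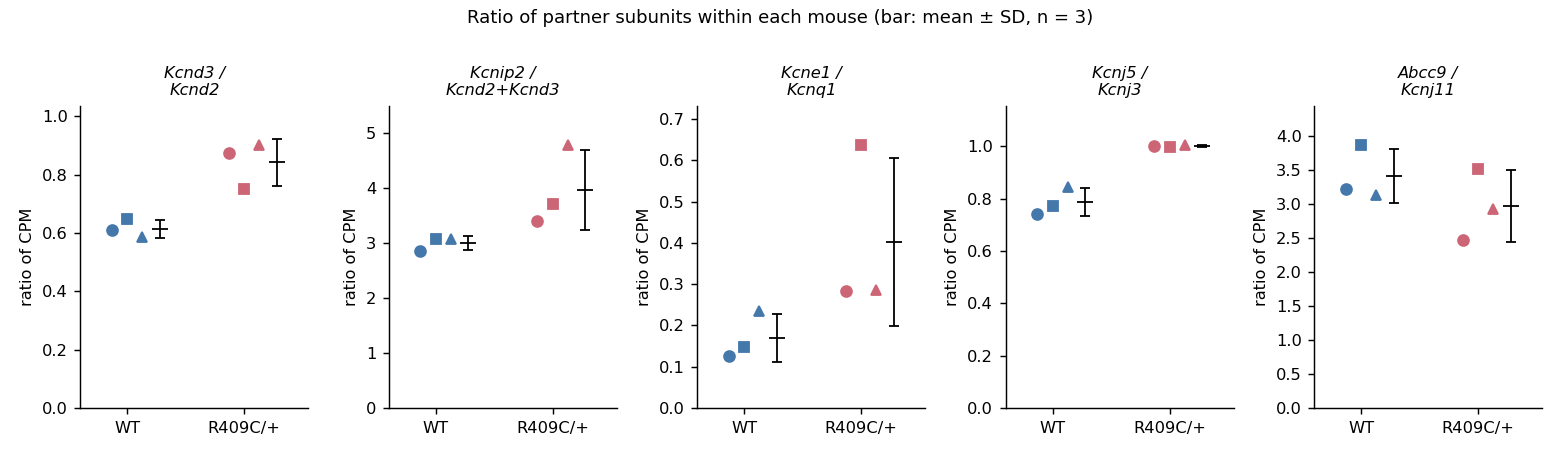
Ratio of the CPM of partner genes (vertical axes, from 0, no unit) in each WT (blue) and *Lztr1* R409C/+ mouse (red), with circle, square, and triangle for replicates 1, 2, and 3 and bars for the mean ± SD. The genotypes are separate for 4 of 5 ratios, all higher in the mutant, and overlap for *Abcc9* to *Kcnj11*.

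*Kcna5* (ENSMUSG00000045534.5, GRCm39 chr6:126509514-126512375), which encodes the ultrarapid Kv1.5 channel, had 22.9, 18.8, and 15.0 CPM in WT and 17.8, 25.0, and 24.1 CPM in *Lztr1* R409C/+ mice. The lowest mice were WT replicate 3 and *Lztr1* R409C/+ replicate 1, and the genotypes overlapped. *Kcna5* had a log2 fold change of 0.24 (SE 0.20), with a 95% interval of −0.19 to 0.67 and an adjusted p of 0.776 in the edgeR fit. With each mouse left out, the log2 fold change lay between 0.10 and 0.40.

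Among the inward rectifiers, *Kcnj2* (ENSMUSG00000041695.3, GRCm39 chr11:110956981-110967665), which encodes Kir2.1, the main channel of the resting potential, had 40.8, 50.4, and 36.9 CPM in WT and 44.1, 36.8, and 32.2 CPM in *Lztr1* R409C/+ mice. The genotypes overlapped, with a log2 fold change of −0.18 (SE 0.18), a 95% interval of −0.56 to 0.20, and an adjusted p of 0.817 in the edgeR fit. Without WT replicate 3 and *Lztr1* R409C/+ replicate 1, the log2 fold change was −0.40 at an unadjusted p of 0.0373 by the same edgeR test, and *Kcnj2* was then the last of 3 of 9 members lower at an unadjusted p under 0.05, against 2.58% of the genes tested without these mice. This was the one of 16 alternatives with a p in which *Kcnj2* was under 0.05, and with each mouse left out its log2 fold change lay between −0.32 and −0.05 (unadjusted p = 0.109 to 0.821 in the edgeR fit). Its relative *Kcnj12*, which encodes Kir2.2, had 14.3 to 19.2 CPM in all mice and a log2 fold change of 0.11.

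*Kcnj3* (ENSMUSG00000026824.12, GRCm39 chr2:55325801-55488157) had 78.7, 78.5, and 67.1 CPM in WT and 57.8, 48.7, and 52.9 CPM in *Lztr1* R409C/+ mice. The mutant mice were all below the WT mice, with means of 74.8 ± 6.63 and 53.2 ± 4.55 CPM (SD, n = 3 each). The log2 fold change was −0.49 (SE 0.15), a difference of −28.9% with a 95% interval of −43.4% to −10.7%, with an unadjusted p of 0.00684 and, in the edgeR fit, an adjusted p of 0.377. DESeq2 gave an adjusted p of 0.162. Without WT replicate 3 and *Lztr1* R409C/+ replicate 1, the log2 fold change was −0.63. With library size as the only scaling, it was −0.64, but its unadjusted p was 0.0527 by the edgeR test.

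*Kcnj5*, the partner of *Kcnj3*, had 58.4, 60.7, and 56.7 CPM in WT and 57.9, 48.6, and 53.1 CPM in *Lztr1* R409C/+ mice, so the genotypes overlapped (log2 fold change −0.14, SE 0.15). Within libraries, the ratio of *Kcnj5* to *Kcnj3* was 0.742, 0.772, and 0.844 in WT mice, against 1.001, 0.997, and 1.004 in *Lztr1* R409C/+ mice. The 3 mutant mice had nearly the same ratio, above every WT mouse (log2 difference 0.35, exact permutation test, two-sided, p = 0.1, the smallest possible, and 0.125 adjusted over the 5 ratios).

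*Kcnj3* and *Kcnj5* are most abundant in the atria, and the levels of atrial genes are given beside them. *Nppa*, which encodes atrial natriuretic peptide, had 37.7, 49.9, and 76.0 CPM in WT and 52.9, 106.5, and 76.3 CPM in *Lztr1* R409C/+ mice. The summed CPM of the 8 atrial marker genes was 626 to 754 in WT and 519 to 645 in *Lztr1* R409C/+ mice. *Pam*, an enzyme of peptide processing that other cells express too, made up most of this sum, with 572, 623, and 659 CPM in WT and 452, 525, and 457 CPM in *Lztr1* R409C/+ mice. Of the 5 atrial genes that were tested, *Pam* was lower and *Dkk3* was higher at an unadjusted p under 0.05 in the edgeR fit. Of all tested genes, 2.86% were lower and 5.77% higher at this threshold. Of the other atrial markers, *Myl7*, *Sln*, and *Bmp10* had between 0 and 19 counts in any mouse. *Myl4* had 23 to 54, *Dkk3* 67 to 280, and *Stard10* 650 to 1547 counts. *Kcnj3* had 3205 to 6359 counts. The part of atrial tissue in the values of *Kcnj3* was not tested.

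*Kcnj11* (ENSMUSG00000096146.3, GRCm39 chr7:45743377-45750188) encodes Kir6.2, the pore of the ATP-sensitive channel. It had 116.7, 114.0, and 89.6 CPM in WT and 95.2, 110.7, and 117.0 CPM in *Lztr1* R409C/+ mice. The lowest values were again those of WT replicate 3 and *Lztr1* R409C/+ replicate 1. The log2 fold change was 0.01 (SE 0.17), with a 95% interval of −0.35 to 0.37 and an adjusted p of 0.989 in the edgeR fit, and its sign turned with the processing. *Abcc9*, which encodes the sulfonylurea receptor SUR2 that assembles with Kir6.2 in the ventricle, had 235 to 440 CPM over the 6 mice. The ratio of *Abcc9* to *Kcnj11* overlapped between genotypes (3.41 ± 0.397 in WT and 2.97 ± 0.525 in *Lztr1* R409C/+ mice, SD, n = 3 each, exact permutation test, two-sided, p = 0.4). *Kcnj8*, which encodes Kir6.1, the pore of vascular ATP-sensitive channels, had 16.1 to 28.8 CPM and a log2 fold change of 0.29 (0.13 to 0.41 with each mouse left out, adjusted p = 0.710 in the edgeR fit).

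*Kcnq1* (ENSMUSG00000009545.15, GRCm39 chr7:142660099-142980788), the pore of IKs, had 32.5, 29.3, and 19.5 CPM in WT and 22.3, 34.3, and 33.6 CPM in *Lztr1* R409C/+ mice. Its spread within each genotype was the widest of the 9 genes in WT, at 25.0% of the mean, and the genotypes overlapped. The log2 fold change was 0.15 (SE 0.22), with a 95% interval of −0.33 to 0.63 and an adjusted p of 0.892 in the edgeR fit. The antisense transcript *Kcnq1ot1* overlaps *Kcnq1* and had 145 to 207 counts, against 1234 to 2450 of *Kcnq1*. Whether the reads were counted by strand is not given in the sources used here.

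*Kcne1*, which encodes the minK subunit that slows the opening of KCNQ1 channels, had 4.06, 4.35, and 4.57 CPM in WT and 6.33, 21.8, and 9.58 CPM in *Lztr1* R409C/+ mice. All mutant mice were above all WT mice, and *Lztr1* R409C/+ replicate 2 stood far above the rest. The log2 fold change was 1.54 (SE 0.37), with an unadjusted p of 0.00166 and, in the edgeR fit, an adjusted p of 0.244, whereas DESeq2 gave an adjusted p of 0.00433. Without *Lztr1* R409C/+ replicate 2, the log2 fold change was 0.87 at an unadjusted p of 0.00625 by the same edgeR test. The ratio of *Kcne1* to *Kcnq1* was 0.125, 0.148, and 0.234 in WT mice, against 0.284, 0.637, and 0.285 in *Lztr1* R409C/+ mice, without overlap (log2 difference 1.19, exact permutation p = 0.1, the smallest possible, 0.125 adjusted over the 5 ratios). WT replicate 3, the WT mouse with the lowest *Kcnq1*, came closest to the mutant mice.

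*Kcnh2* (ENSMUSG00000038319.15, GRCm39 chr5:24524567-24556762), which encodes ERG, the pore of IKr, had 46.3, 51.7, and 36.1 CPM in WT and 36.0, 51.1, and 57.0 CPM in *Lztr1* R409C/+ mice. The lowest mouse of each genotype had nearly the same level, and the genotypes overlapped. *Kcnh2* had a log2 fold change of 0.10 (SE 0.20), with a 95% interval of −0.33 to 0.54 and an adjusted p of 0.920 in the edgeR fit.

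**Figure D3:**
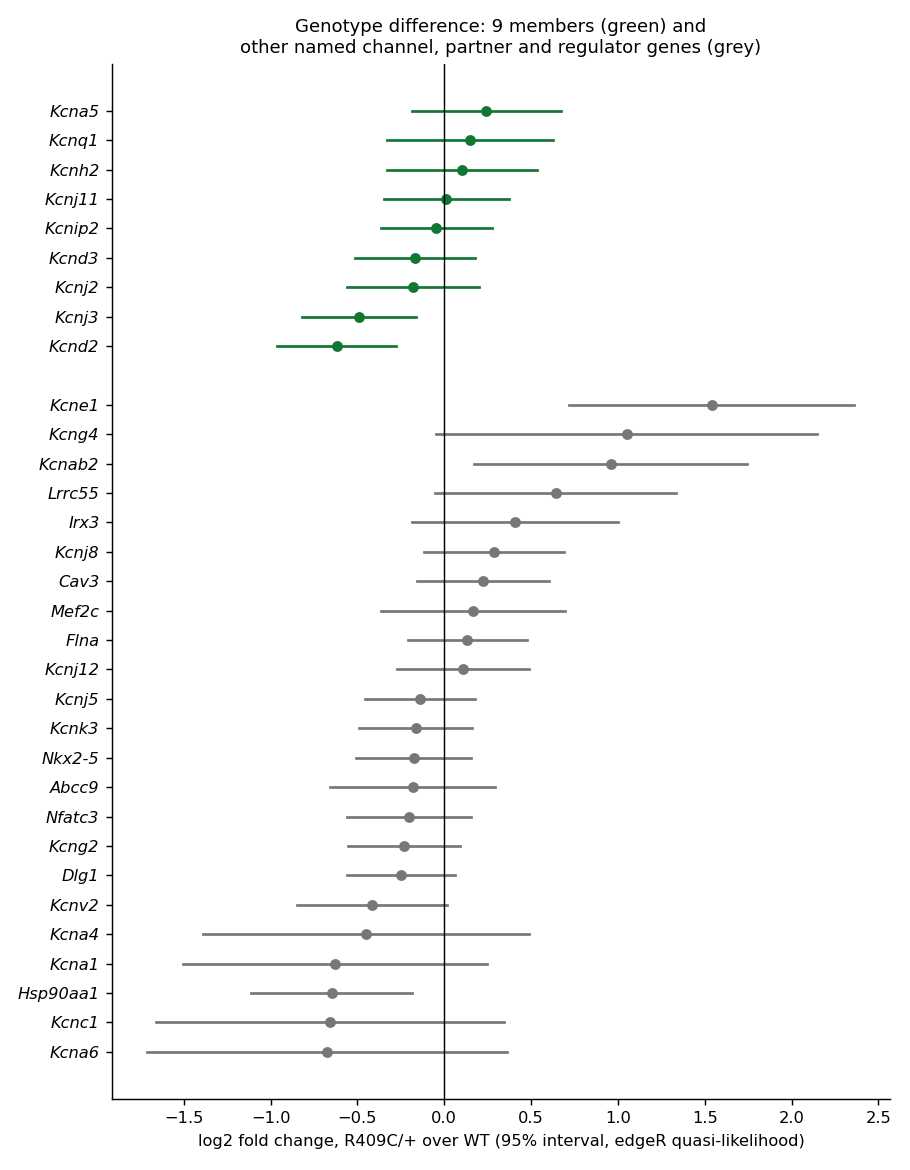
Log2 fold change of *Lztr1* R409C/+ over WT mice (horizontal axis, points) with 95% intervals from the edgeR fit (lines) for the 9 members (green) and for other named channel, partner, trafficking, and transcription factor genes (grey). Intervals of *Kcnd2* and *Kcnj3* lie below 0, those of the other 7 members cross it, and that of *Kcne1* (0.72 to 2.36) lies above it.

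Levels were compared between genes per kilobase of exon, with all annotated exons of a gene joined, whether or not the ventricle uses them. The order therefore depends on the annotation. *Kcnd3* had 9949 bases of exon and *Kcnd2* 5788. *Kcnip2* had the highest level, with 34.5 CPM per kb over the 6 mice (range 31.7 to 37.1), followed by *Kcnj11* with 29.2 (24.4 to 31.8). *Kcnj3* came next with 11.3 CPM per kb, then *Kcnh2* with 8.94, *Kcnj2* with 7.35, *Kcna5* with 7.20, *Kcnq1* with 5.57, and *Kcnd2* with 4.15. *Kcnd3* had the lowest level with 1.70 CPM per kb (range 1.48 to 1.88). Between neighbours in this order, the ranges over mice did not overlap only for *Kcnj11* above *Kcnj3* and for *Kcnd2* above *Kcnd3*. *Kcnd2* was above *Kcnd3* per kb in all 6 mice, also in the mutant mice, in which its level was lower. Without the correction for length, the mean over 6 mice was 24.0 CPM for *Kcnd2* and 16.9 CPM for *Kcnd3*.

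**Figure D4:**
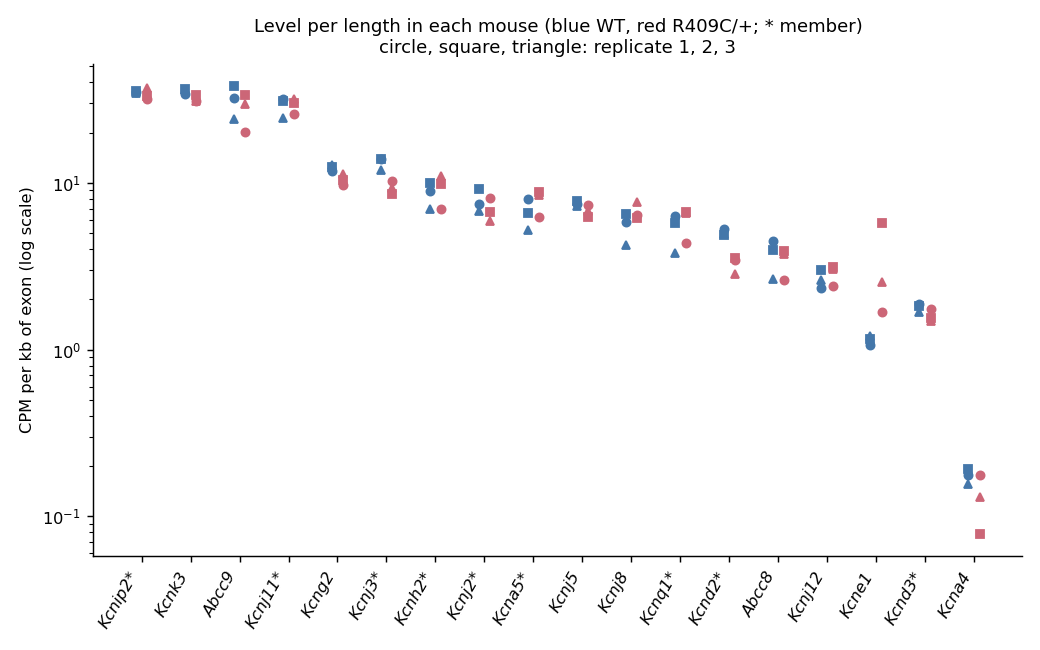
CPM per kb of exon (vertical axis, log scale) of the 9 members (asterisks) and their partner genes in each WT (blue) and *Lztr1* R409C/+ mouse (red), ordered by the mean of 6 mice. *Kcnip2* and *Kcnj11* lie between 24.4 and 37.1, the other 7 members between 1.48 and 13.9.

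The members fell into different patterns over the 6 mice. *Kcnd2* and *Kcnj3* followed genotype, and their log2 CPM had a Pearson r of 0.88 over the 6 mice. This likeness was not particular to that pair, since *Kcnd3*, whose genotypes overlapped, had r of 0.87 with *Kcnj3*, 0.79 with *Kcnd2*, and 0.82 with *Kcnj2*. The points of each correlation share the libraries and the scaling, so these are descriptions. *Kcna5*, *Kcnj11*, *Kcnq1*, and *Kcnh2* had their 2 lowest values in WT replicate 3 and *Lztr1* R409C/+ replicate 1. These 4 of 9 members, grouped after their values were seen, compare with 9.88% of all tested genes that had the same 2 lowest mice. The pattern is made by these 2 mice. Without both, the log2 fold changes were 0.24 for *Kcna5*, −0.02 for *Kcnj11*, 0.13 for *Kcnq1*, and 0.14 for *Kcnh2*, all at an unadjusted p above 0.05 in the edgeR fit, and those of *Kcnd3* and *Kcnip2* were −0.30 and −0.01. The same mice had the lowest and the highest mitochondrial share, and *Abcc8* and *Abcc9*, the sulfonylurea receptors, were lowest in the same mice. Relative to its own mean, *Kcnq1* was −0.52 in WT replicate 3 and −0.33 in *Lztr1* R409C/+ replicate 1 on the log2 scale. Genes within 1 percentage point of its GC content had medians of −0.06 and −0.09 in these mice. *Kcnh2*, with the highest GC content of the members (61.7%), was −0.34 in both, beside medians of 0.05 and −0.19 for genes of like GC. In *Lztr1* R409C/+ replicate 3, *Kcnh2* was 0.32 beside a median of 0.33, and *Kcnj2* was −0.31 beside −0.29. *Kcnd2* was −0.515 beside −0.08 in that mouse. *Kcna5*, *Kcnj11*, *Kcnq1*, and *Kcnh2* had 54.3% to 61.7% GC and *Kcnip2* 55.3%. *Kcnd2*, *Kcnd3*, *Kcnj2*, and *Kcnj3* had 41.2% to 49.1%. The part of RNA quality, of GC content, or of mitochondrial reads in these patterns was not tested.

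**Figure D5:**
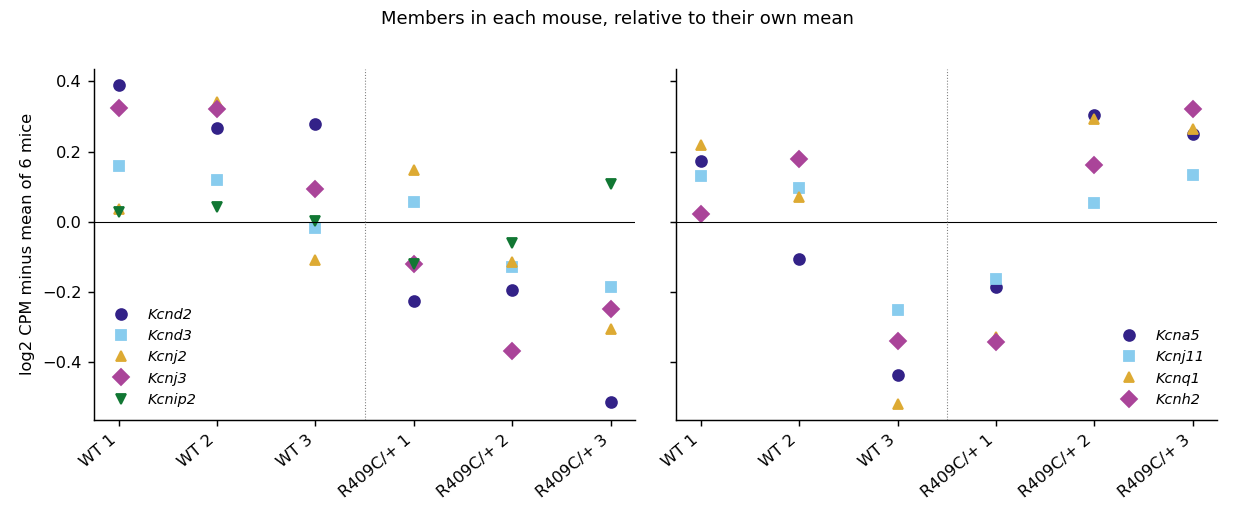
Log2 CPM of each member minus its mean over 6 mice (vertical axis) in each mouse (horizontal axis). In the left panel *Kcnd2* and *Kcnj3* are above 0 in all WT and below 0 in all *Lztr1* R409C/+ mice. In the right panel *Kcna5*, *Kcnj11*, *Kcnq1*, and *Kcnh2* are below 0 in WT replicate 3 and *Lztr1* R409C/+ replicate 1.

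For each member, the 2 tested genes with the highest Pearson r of log2 CPM over the 6 mice were sought among 16508 genes. They were *Retreg1* (r = 0.998) and *Zmat1* for *Kcnd2*, *Kat6b* and *Dhtkd1* for *Kcnd3*, *Wnt11* and *Tchp* for *Kcnip2*, *Asap1* and *Ubox5* for *Kcna5*, *Smurf2* and *Septin10* for *Kcnj2*, *Gm10727* and *Armh4* for *Kcnj3*, *Fntb* and *Ppp2r5d* for *Kcnj11*, *Trim3* and *Zfp64* for *Kcnq1*, and *Zfp747* and *Hip1* for *Kcnh2*. With 6 mice and this many genes searched, an r of 0.98 or more is reached for every member, and the lists describe likeness over these mice only. *Retreg1*, an endoplasmic reticulum receptor for autophagy, had 339, 315, and 316 CPM in WT and 247, 255, and 221 CPM in *Lztr1* R409C/+ mice, the same order of mice as *Kcnd2*. *Armh4* had 14.4, 14.7, and 10.05 CPM in WT and 8.27, 5.65, and 5.82 CPM in *Lztr1* R409C/+ mice.

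Among the other genes of potassium channels and their auxiliary subunits, 91 were listed, 52 were tested, and 16 had no count in any mouse. At an unadjusted p under 0.05 in the edgeR fit, 3 of 52 were higher in *Lztr1* R409C/+ mice (*Kcne1*, *Kcnab3*, and *Kcnab2*, all auxiliary subunits) and 0 were lower. The shares of all tested genes were 5.77% and 2.86%. The count of 3 includes *Kcnab3*, which passed the filter on low counts only through the mutant mice and could only come out higher. The count is therefore not read against the share of 5.77%. By adjusted p, 0 of 52 passed in the edgeR fit, beside 0.0407% of all tested genes, whereas DESeq2 called *Kcne1*, as given above, beside 0.871% of all tested genes. DESeq2 also called *Kcnab3*, which is not counted because the filter fixed its direction. The genotypes did not overlap for 10 of the 52 genes, 5 higher and 5 lower, against 8.3% and 7.23% of all tested genes. The median log2 fold change was 0.16, with 31 genes above 0 and 21 below. *Kcnab3*, whose direction the filter fixed, is among the 5 higher genes and the 31 above 0, so these counts are descriptions.

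*Kcnab3*, a beta subunit of Kv1 channels, had 0 counts in all WT mice and 15, 11, and 11 counts in *Lztr1* R409C/+ mice. It entered the tested genes through the mutant mice alone, so its direction was fixed by the filter, and its values are a description. Against a floor of 3 counts per WT library, they amount to at least 4.66-fold higher. Its antisense gene *Kcnab3os* had 0 to 7 counts. *Kcnab2*, which encodes another beta subunit of Kv1 channels such as Kv1.5, had 1.13, 1.74, and 1.02 CPM in WT and 1.82, 2.0, and 3.73 CPM in *Lztr1* R409C/+ mice (log2 fold change 0.96, unadjusted p = 0.0209, adjusted p = 0.499 in the edgeR fit). Without *Lztr1* R409C/+ replicate 3, its log2 fold change was 0.56 and its unadjusted p by the edgeR test was 0.150. Without WT replicate 1 or WT replicate 3, its unadjusted p by the same edgeR test was 0.0618 or 0.0704.

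Of the other pore-forming genes, *Kcna4*, which encodes Kv1.4 of the slow transient outward current, was low in both genotypes (0.910 ± 0.0914 and 0.667 ± 0.258 CPM, SD, n = 3 each). *Kcnk3*, which encodes the two-pore channel TASK-1, had 316, 340, and 333 CPM in WT and 288, 310, and 286 CPM in *Lztr1* R409C/+ mice, without overlap (log2 fold change −0.16, adjusted p = 0.802 in the edgeR fit). *Kcng2* and *Kcnv2*, silent Kv subunits that form no channel on their own, were also lower without overlap, at 114.7 ± 9.08 against 134.7 ± 6.06 CPM and 8.62 ± 0.519 against 11.5 ± 2.58 CPM (log2 fold changes −0.23 and −0.42, the latter −0.56 to −0.23 with each mouse left out). *Kcnc1* was lower without overlap at under 1 CPM (log2 fold change −0.66), and *Kcna1* and *Kcna6* overlapped (−0.63 and −0.67). *Kcng4* was higher without overlap at a level of 0.359 against 0.749 CPM (log2 fold change 1.05). *Lrrc55* overlapped (log2 fold change 0.64, and 0.42 to 0.88 with each mouse left out).

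Of 12 genes for trafficking and anchoring of channels, all tested, 0 passed an adjusted p of 0.05 in the edgeR fit, beside 0.0407% of all tested genes. At an unadjusted p under 0.05 in this fit, 0 were higher and 1 was lower, against 5.77% and 2.86% of all tested genes. This was *Hsp90aa1*, a chaperone that ERG channels need to mature, with 157, 141, and 244 CPM in WT and 102, 134, and 110 CPM in *Lztr1* R409C/+ mice. The highest mouse was WT replicate 3, without which its log2 fold change was −0.37 in place of −0.65 (unadjusted p = 0.0596 in place of 0.0102 by the edgeR test). *Dlg1*, the scaffold SAP97 that binds Kv4 and Kir2 channels, was lower without overlap (71.8 ± 1.60 against 60.5 ± 3.86 CPM, SD, n = 3 each, log2 fold change −0.25, adjusted p = 0.664 in the edgeR fit). *Cav3*, the caveolin of muscle, and *Flna*, an actin crosslinker, had log2 fold changes of 0.22 and 0.13 with overlap.

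Of 10 genes for transcription factors that act on channel genes, all tested, 0 passed an unadjusted p of 0.05 in the edgeR fit in either direction. Of all tested genes, 8.63% did. *Irx3*, an Iroquois factor of the conduction system, had a log2 fold change of 0.41 (0.13 to 0.70 with each mouse left out) and *Mef2c* one of 0.16. *Nkx2-5*, the cardiac homeobox factor, had −0.18 and *Nfatc3*, a target of calcineurin, −0.20 (−0.30 to −0.10 with each mouse left out). The genotypes overlapped for all 10 genes.

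The counts of marker genes below stand beside these shares of all tested genes. At an unadjusted p under 0.05 in the edgeR fit, 5.77% were higher and 2.86% lower in the mutant. The genotypes did not overlap for 8.3%, higher, and 7.23%, lower, and 48.6% had a log2 fold change below 0. Of the marker lists of other cell types, that of macrophages was the one whose genes all separated by genotype. All 8 macrophage genes were higher at an unadjusted p under 0.05 without overlap, with summed levels of 110 to 114 CPM in WT and 186 to 204 CPM in *Lztr1* R409C/+ mice, and *C1qa* had 7.33 to 12.7 and 22.1 to 40.9 CPM. The summed hemoglobin and *Alas2* level was 579 to 1479 CPM in WT and 1042 to 2625 CPM in *Lztr1* R409C/+ mice, with log2 fold changes of the single genes between 0.90 and 1.08. Of these 5 genes, 3 were higher at an unadjusted p under 0.05 in the edgeR fit, and all 5 overlapped between the genotypes. Of 7 fibroblast genes, *Lum* and *Tcf21* were higher at an unadjusted p under 0.05 in the edgeR fit, but 4 log2 fold changes of the list were above 0 and 3 below, and the summed level overlapped (1271 to 1612 CPM in WT and 1117 to 1658 CPM in the mutant). Of 7 endothelial genes, *Emcn* was higher at the same threshold, with 5 log2 fold changes of the list above 0 and 2 below. The summed endothelial level overlapped (542 to 706 CPM in WT and 473 to 765 CPM in the mutant). Of 7 mural genes, *Myh11* and *Tagln*, genes of smooth muscle, were lower without overlap (log2 fold changes −0.71 and −0.65). In the whole mural list, 2 log2 fold changes were above 0 and 5 below. Its summed level overlapped (691 to 811 CPM in WT and 638 to 779 CPM in the mutant). The summed level of 10 ventricular cardiomyocyte genes was 45020 to 48932 CPM in WT and 33444 to 47152 CPM in *Lztr1* R409C/+ mice, and 0 of 10 passed an unadjusted p of 0.05 in the edgeR fit. Their log2 fold changes had a median of −0.23, with 7 of 10 below 0, the direction of *Kcnd2* and *Kcnj3*, and *Ryr2*, the calcium release channel, was lower without overlap (log2 fold change −0.33). At an unadjusted p under 0.05 in the edgeR fit, 0 of the conduction and of the glial and neuronal markers passed, and *Isl1* and *Snap25* had no count in any mouse. Relative to the geometric mean of the 10 cardiomyocyte genes, *Kcnd2* was lower in every mutant than in every WT mouse, with a log2 difference of −0.47 (SD 0.016 in WT and 0.36 in mutant mice, n = 3 each, exact permutation test, two-sided, p = 0.1, the smallest possible). Without *Lztr1* R409C/+ replicate 3, this difference was −0.27. *Kcnj3* on the same scale overlapped between the genotypes (log2 difference −0.34, exact permutation p = 0.2). The part of these cell types in the values of *Kcnd2*, *Kcnj3*, *Kcne1*, and *Kcnab2* was not tested.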

How the data were processed

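Reads of 6 LV libraries were trimmed with Trim Galore, aligned to GRCm39 with HISAT2, and assigned with StringTie, per the submitters' processing notes and the study's methods, which also exclude rRNA. The annotation release and the way counts were taken are not given in the sources used here. The authors deposited whole-number counts per gene without normalization. A second deposited table holds the authors' own edgeR comparison, with log2 fold changes, log2 CPM, p-values, and adjusted p-values, and only its gene names were used. Groups came from the sample labels.

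The analysis of the counts used edgeR 4.0.16 in R 4.3.3 (filterByExpr, TMM, robust quasi-likelihood test of genotype, two-sided, Benjamini-Hochberg adjustment over 17212 genes). CPM were computed on TMM-scaled libraries. The common biological coefficient of variation was 26.1%. Ratios were compared by exact permutation tests in Python 3.11.15 with scipy 1.17.1. Exon lengths, GC content, and positions came from GENCODE on GRCm39, in which 56236 of 56923 identifiers were found, and promoter sequences from RefSeq. The fits were tested on simulated data, of which no outcome is given or used here.

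The members, the lists of other genes, and the tests were chosen with earlier results of these data known. Named were all 9 members, 7 partner or related channel genes (1 more under this rule is not reported here), the 5 other channel genes with the smallest unadjusted p in each direction, the 2 such genes in each direction among trafficking and transcription factor genes, the 2 genes most like each member, and the defining or absent markers. *Abcc8*, *Ryr2*, *Myl7*, *Sln*, *Bmp10*, *Myl4*, *Stard10*, *Pam*, *Dkk3*, *Lum*, *Tcf21*, *Emcn*, *Myh11*, and *Tagln* were named after their values were seen. Alternatives were scaling by upper quartile, by library size alone, or by the size factors of DESeq2, the tests of DESeq2 1.42.0 and the exact test of edgeR, a filter of at least 10 counts in every mouse or none, counts without the mitochondrial genes, a replicate block, a correction for gene length, a threshold of 0.1, and leaving out each mouse. Leaving out WT replicate 3 with *Lztr1* R409C/+ replicate 1, both GC comparisons, and the ratios to cardiomyocyte markers were added after seeing the data. The labels do not say more of the replicates than that each is a separate library, so p-values measure the spread between these samples.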

Additional observations from a re-analysis of the deposited data

How the results depend on the processing

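*Kcnd2* was lower in *Lztr1* R409C/+ mice, at an unadjusted p under 0.05, in 16 of 16 alternatives that gave a p by edgeR or DESeq2 (log2 fold change −0.78 to −0.52), and *Kcnj3* in 15 of 16 (−0.64 to −0.44). With library size only, the median of all genes was −0.14, that of the members −0.19, and 1 member was lower at an unadjusted p under 0.05. With TMM, the members' median was −0.05 and became −0.11 with the length correction, −0.14 with the GC correction, and −0.10 to −0.0067 with each mouse left out, when 2 members were lower each time. Genes higher at adjusted p 0.05 were 6 and became 15 with library size only, 136 with DESeq2, 124 with edgeR's exact test, 19 without a filter, 15 at a threshold of 0.1, 0 without WT replicate 3 and *Lztr1* R409C/+ replicate 1, and 1 to 3 with each mouse left out. Genes lower were 1 and became 6, 14, and 13 with the first 3 of these, 0 with at least 10 counts in every mouse, and 1 to 2 with each mouse left out. At an unadjusted p under 0.05, library size only gave 388 higher and 301 lower genes, upper quartile scaling 305 lower genes, and leaving out each mouse 861 to 1014 higher and 336 to 531 lower genes. Of the other channel genes, 2 were lower without a filter, 1 without the same pair of libraries, and 0 to 1 with each mouse left out, and 3 to 5 were higher with each mouse left out. The cause of these shifts was not tested.

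The sign of small differences turned. *Kcnj11* was −0.10 with library size only, −0.0012 without a filter, −0.019 without the pair of libraries, −0.071 with the length correction, −0.094 with the GC correction, and −0.10 to 0.086 with each mouse left out. *Kcnh2* was −0.0038 with the GC correction and −0.037 to 0.27 with each mouse left out, and *Kcnq1* −0.043 to 0.32. *Kcnj12* was −0.026 and *Flna* −0.0081 with library size only. Leaving out each mouse gave 0.028 to 0.21 for *Kcnj12*, 0.065 to 0.24 for *Flna*, and −0.11 to −0.0067 for *Kcnip2*. With each mouse left out, *Kcna4* was −0.75 to −0.20, *Kcnab2* 0.56 to 1.22, *Kcna6* −0.98 to −0.43, *Abcc9* −0.35 to −0.0076, *Kcnj5* −0.21 to −0.084, *Cav3* 0.11 to 0.37, *Hsp90aa1* −0.80 to −0.37, and *Nkx2-5* −0.24 to −0.094. *Mef2c* was −0.20 without the pair of libraries and −0.038 to 0.40 with each mouse left out. The log2 ratios kept their direction with each mouse left out: *Kcnd3* to *Kcnd2* 0.40 to 0.53, *Kcnip2* to *Kcnd2* plus *Kcnd3* 0.24 to 0.49, *Kcne1* to *Kcnq1* 0.80 to 1.45, *Kcnj5* to *Kcnj3* 0.31 to 0.40, and *Abcc9* to *Kcnj11* −0.34 to −0.08.

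The labels name no pairing of the mice, and deviations of same-numbered mice from their genotype mean correlated at 0.00065, 0.015, and −0.053. These values are over all tested genes, so they cannot exclude a pairing that touches few genes. With the replicate block, 0 genes were higher and 1 lower at adjusted p 0.05, 324 were lower at an unadjusted p under 0.05, and *Kcnd2* and *Kcnj3* were −0.62 and −0.49.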
